A study of Homo sapiens with 12 samples.

Results

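The expression of 10 nuclear genes whose enzymes cut, modify or polyadenylate mitochondrial RNA was followed in prostate cancer cells exposed to pentamidine: TRMT10C, HSD17B10, ELAC2, MTO1, GTPBP3, TRMU, TRIT1, PUS1, NSUN3 and MTPAP. The genes were taken by name, with earlier results of these data already known. All 10 were found among the 32077 genes of the count table and passed the filter on low counts in every comparison. The samples were PC3 and DU145 cells, lines grown from a bone and a brain metastasis of prostate cancer, each treated with 2.5 µM pentamidine, an antiprotozoal diamidine, or with its vehicle, sterile distilled water, for 48 h. Each of the 4 groups held 3 samples, 12 in all, and RNA selected with Oligo(dT) was sequenced. Each line stands for 1 cell line, and the labels do not say whether the samples of a group came from separate cultures, so the p-values measure the spread between these samples, which may be technical.

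Mitochondrial DNA is transcribed into long RNAs in which tRNAs lie between the mRNAs and rRNAs, so that cutting out the tRNAs also frees the other transcripts. TRMT10C, HSD17B10 and the nuclease PRORP form mitochondrial RNase P, which cuts ahead of a tRNA, and ELAC2 cuts behind it. Further enzymes then modify tRNA bases, mainly in and beside the anticodon, where MTO1, GTPBP3 and TRMU act on the wobble uridine, and MTPAP adds poly(A) tails to mitochondrial mRNAs. The data give the mRNA levels of these enzymes and hold no measurement of tRNA modification or of enzyme activity.

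Total counts per sample ran from 13514195 to 15131436. The 13 mRNAs encoded in mitochondrial DNA took 3.42% ± 0.0723 (SD, n = 3) of the counts in vehicle-treated PC3 cells and 0.248% ± 0.00734 with pentamidine, and 3.93% ± 0.11 and 0.209% ± 0.00416 in DU145 cells. Of the markers of epithelial cells, KRT18 and KRT8 were present in all samples, whereas EPCAM (0 to 2 counts) and CDH1 (0 to 10 counts) were at or near 0 in both lines. The calls of the 10 genes for the effect within each line were also made with the mitochondria-encoded genes left out of the scaling. The lines are called as they were labelled, and the part of these marker levels in the results was not tested.

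Pentamidine lowered 3 of the 10 genes in both lines, TRMT10C, ELAC2 and MTPAP, beside 9.62% of all genes tested in both, and their promoters are shown because these genes moved together. The windows are the 250 bases before the start of transcription in RefSeq (build GRCh38.p14), read 5′ to 3′ on the strand of the gene, with matches to 5 motifs in capitals: NRF1 (GCGC, any base, TGCGC), ETS (CCGGAAG), ATF4 (TGATGNAA), SP1 (GGGCGG) and YY1 (AANATGGC), each sought on both strands. They are chr3:101561618-101561867 on the plus strand for TRMT10C, chr17:13018028-13018277 on the minus strand for ELAC2 and chr10:30349279-30349528 on the minus strand for MTPAP. The windows of TRMT10C and ELAC2 overlap the start of the gene span given with the counts, and that of MTPAP lies inside its longer span.
TRMT10C: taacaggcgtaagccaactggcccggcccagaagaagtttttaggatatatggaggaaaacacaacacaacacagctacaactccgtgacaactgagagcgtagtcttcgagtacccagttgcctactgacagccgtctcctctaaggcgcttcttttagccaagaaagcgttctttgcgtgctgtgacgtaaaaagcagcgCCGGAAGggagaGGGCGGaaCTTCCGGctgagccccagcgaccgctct
ELAC2: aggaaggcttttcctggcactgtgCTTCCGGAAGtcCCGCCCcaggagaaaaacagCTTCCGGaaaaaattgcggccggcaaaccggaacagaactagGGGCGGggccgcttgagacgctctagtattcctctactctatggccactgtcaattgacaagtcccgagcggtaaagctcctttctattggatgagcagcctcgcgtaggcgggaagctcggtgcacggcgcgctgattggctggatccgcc
MTPAP: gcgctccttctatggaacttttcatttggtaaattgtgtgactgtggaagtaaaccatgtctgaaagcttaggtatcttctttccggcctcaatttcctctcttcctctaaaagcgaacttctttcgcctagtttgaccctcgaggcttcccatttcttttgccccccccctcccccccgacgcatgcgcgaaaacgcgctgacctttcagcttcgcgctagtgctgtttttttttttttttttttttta
The TRMT10C window held 2 ETS matches on opposite strands, 42 to 48 and 22 to 28 bases before the start, with 1 SP1 match between them. The ELAC2 window held 3 ETS matches, of which a pair shares bases, and 2 SP1 matches. None of the 5 motifs had a match in the MTPAP window, which says only that these letters are not in it. Promoters were at hand for 7 of the 10 genes, and MTO1, TRIT1 and PUS1 had none. Among the others, NSUN3 and TRMU held 2 ETS matches each, and GTPBP3 and HSD17B10 held SP1 matches only. Of 34788 promoter windows of the same length, 8.50% held an ETS match, 42.6% an SP1 match, 5.05% an NRF1 match, 3.16% an ATF4 match and 3.86% a YY1 match. A match is a description of the letters and not a binding site.

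The levels of the 10 genes differed widely per kilobase of their principal transcript. In vehicle-treated PC3 cells HSD17B10 had the highest level, 151 ± 14.1 CPM per kb (SD, n = 3; CPM is the share of counts, scaled to a common library size), followed by ELAC2 with 88.3 ± 2.45, and the lowest were MTPAP with 4.30 ± 0.0803 and NSUN3 with 2.79 ± 0.448. HSD17B10, ELAC2 and NSUN3 held the same ranks in vehicle-treated DU145 cells, at 140 ± 1.73, 113 ± 1.31 and 2.69 ± 0.395 CPM per kb. The wobble uridine enzymes were not level with each other, since TRMU and GTPBP3 had 50.6 ± 2.28 and 40.4 ± 0.891 CPM per kb in PC3 cells and MTO1 had 13.1 ± 0.563. The ranks from TRMU down depend on the length chosen: with the length of all annotated exons together, TRMT10C moved from rank 6 to rank 3 and TRMU from rank 3 to rank 6 in PC3 cells.

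**Figure D1:**
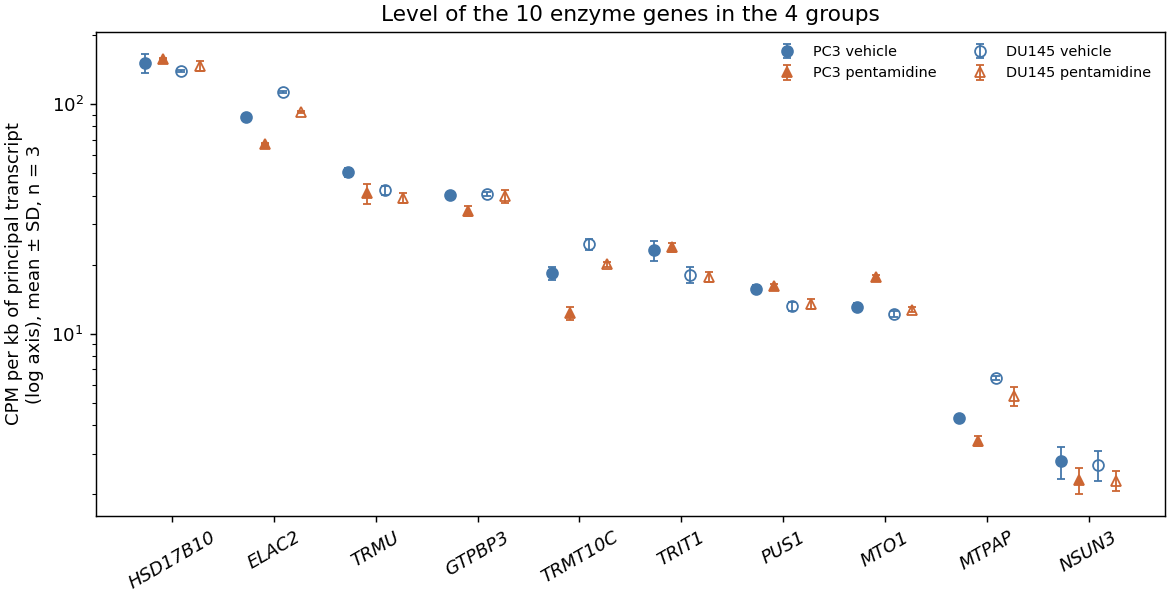
Levels of the 10 genes in the 4 groups, as CPM per kb of principal transcript on a log axis, with points for the mean and bars for the SD of 3 samples. HSD17B10 and ELAC2 lie above the other genes in every group, and the points for TRMT10C, ELAC2 and MTPAP rise from PC3 pentamidine to DU145 vehicle.

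In PC3 cells pentamidine changed 6 of the 10 genes by the quasi-likelihood test of edgeR (adjusted p under 0.05 over 13861 genes), of which 5 were lower and 1 was higher. Among all genes tested 43.4% passed the same threshold, with 21.7% higher and 21.7% lower, so the share of 6 in 10 lies not far above the background. In DU145 cells 3 of the 10 genes passed, all of them lower, where 34.0% of 14313 genes passed, 17.2% higher and 16.8% lower, and the share of 3 in 10 is near that background. TRMT10C, ELAC2 and MTPAP were lower in both lines, which held for 9.62% of the 13125 genes tested in both, while 9.94% were higher in both and none of the 10 genes was. The pentamidine and vehicle groups did not overlap for the same 6 and 3 genes, beside 52.1% of all genes in PC3 and 44.0% in DU145 cells. The changes were modest: none of the 10 genes reached an absolute log2 fold change of 1, which 4.75% of all genes did in PC3 cells and 2.03% in DU145 cells together with the adjusted p. The median log2 fold change of the 10 genes was -0.25 in PC3 and -0.07 in DU145 cells, beside 0.0046 and 0.0085 over all genes tested. Because the 10 genes were chosen with earlier results of these data known, these shares and medians describe the set and do not test it.

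**Figure D2:**
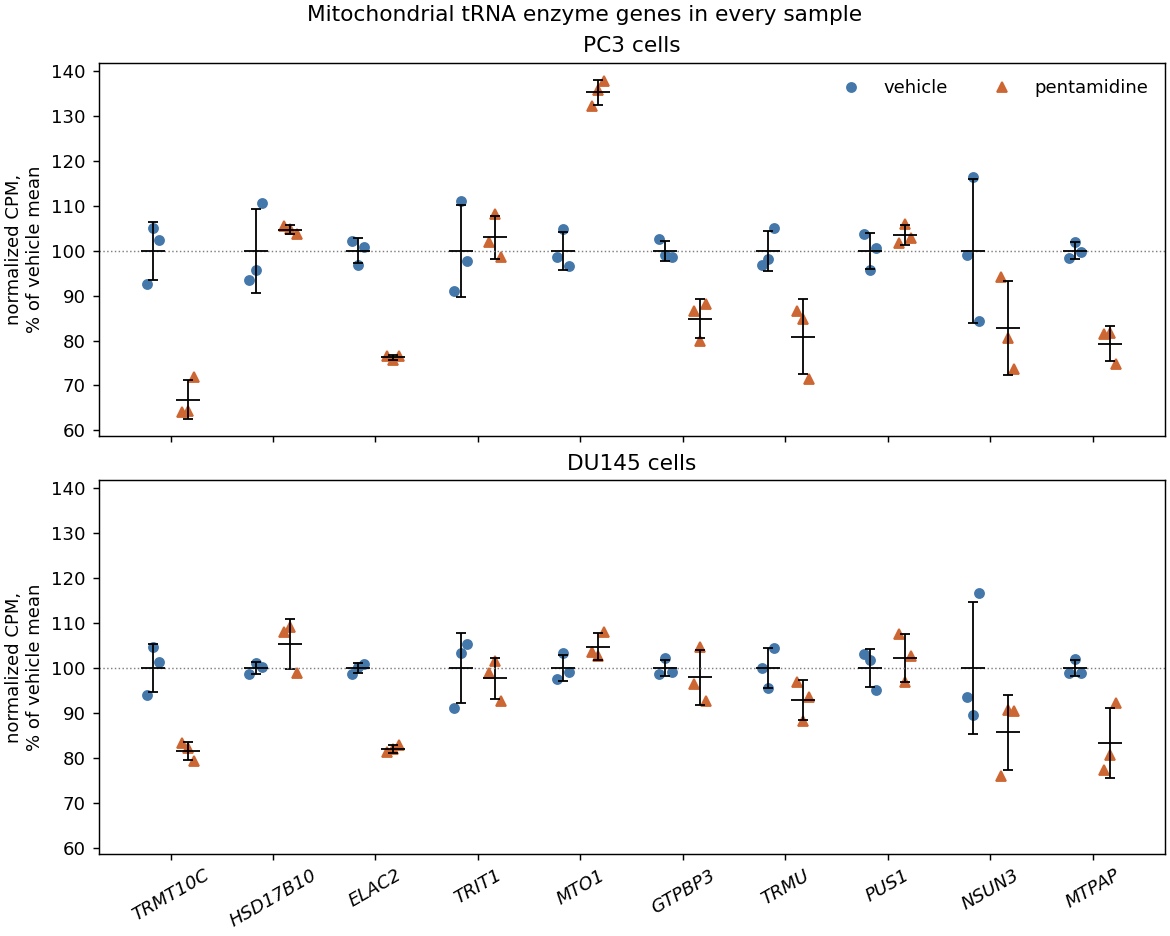
Normalized CPM of each gene in every sample as a percentage of the vehicle mean of its line, with circles for vehicle, triangles for pentamidine, and bars for the mean and SD of 3 samples. The triangles of TRMT10C, ELAC2 and MTPAP lie below all circles in both panels, and those of MTO1 lie above all circles in the PC3 panel.

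TRMT10C (ENSG00000174173, chr3:101561862-101566446, plus strand of GRCh38) encodes the subunit of RNase P that also methylates purines in the tRNA. Its level was 31.1, 35.2 and 34.3 CPM in the 3 vehicle samples of PC3 cells and 21.5, 21.6 and 24.1 CPM with pentamidine. In DU145 cells it was 42.1, 46.8 and 45.4 CPM with vehicle and 37.3, 36.8 and 35.5 CPM with pentamidine. All pentamidine samples lay below all vehicle samples of their line, and the groups did not overlap in either line. The log2 fold change was -0.58 (SE 0.084, adjusted p = 2.84e-05 by edgeR) in PC3 cells, where the fitted level fell by 33.0%, and -0.29 (SE 0.063, adjusted p = 2.07e-04) in DU145 cells, where it fell by 18.3%. These values rest on 304 to 669 counts per sample. In bulk samples fewer cells with the mRNA and less RNA per cell cannot be told apart.

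HSD17B10 (ENSG00000072506, chrX:53431258-53434373, minus strand), a dehydrogenase that also serves in isoleucine breakdown and holds TRMT10C in RNase P, did not follow its partner. It measured 136, 139 and 160 CPM with vehicle and 153, 152 and 150 CPM with pentamidine in PC3 cells. In DU145 cells it measured 132, 136 and 134 CPM with vehicle and 145, 146 and 133 CPM with pentamidine. The groups overlapped in both lines, through vehicle sample 3 in PC3 and pentamidine sample 3 in DU145 cells. The fitted change was 0.07 on the log2 scale (95% interval -0.06 to 0.20, adjusted p = 0.374 by edgeR) in PC3 and 0.08 (95% interval -0.0013 to 0.16, adjusted p = 0.123) in DU145 cells. Without the named sample the change passed the threshold in each line, at 0.15 (adjusted p = 0.0322) in PC3 and 0.12 (adjusted p = 0.0339) in DU145 cells. Each named sample was picked because it made the groups overlap, so these fits are no further evidence of a rise. Leaving out any other single sample gave no call for HSD17B10 in either line.

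PRORP, the nuclease of the complex, is no member of the set and was weakly expressed, with 103 to 166 counts per sample. Its log2 fold change was -0.08 (SE 0.13, adjusted p = 0.674 by edgeR) in PC3 and -0.29 (SE 0.13, adjusted p = 0.0785) in DU145 cells. Both its groups overlapped, and neither change passed the threshold.

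ELAC2 (ENSG00000006744, chr17:12992391-13018187, minus strand), the endonuclease that removes the tail behind a tRNA in the mitochondrion and the nucleus, fell in both lines. PC3 cells had 284, 269 and 280 CPM with vehicle and 213, 210 and 213 CPM with pentamidine. DU145 cells had 351, 356 and 359 CPM with vehicle and 289, 291 and 295 CPM with pentamidine. No pentamidine sample reached a vehicle sample of its line. On the log2 scale the change was -0.39 (SE 0.047, adjusted p = 3.91e-06 by edgeR) in PC3 and -0.28 (SE 0.032, adjusted p = 3.56e-10) in DU145 cells, where it fell by 23.5% and 17.7%.

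The counts of TRMT10C and ELAC2 were also divided by those of HSD17B10 in the same sample, pairs chosen after their values were seen, so that no scaling between libraries enters. The TRMT10C count per HSD17B10 count was 0.232 ± 0.0201 (SD, n = 3) with vehicle and 0.148 ± 0.0110 with pentamidine in PC3 cells, and 0.334 ± 0.0140 and 0.259 ± 0.00807 in DU145 cells. The ELAC2 count per HSD17B10 count was 1.93 ± 0.175 and 1.40 ± 0.0175 in PC3 cells, and 2.65 ± 0.0207 and 2.07 ± 0.131 in DU145 cells. Groups did not overlap in any of these 4 comparisons, and the exact two-sided permutation test gave p = 0.1 for each, the smallest value that 3 against 3 samples allow. TRMT10C and ELAC2 had each separated without overlap in both lines, and HSD17B10 was picked with its values seen. These p-values are therefore no further evidence.

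MTO1 (ENSG00000135297, chr6:73461578-73509236, plus strand) and GTPBP3 (ENSG00000130299, chr19:17334920-17342735, plus strand) encode partner enzymes that together place a taurine-based group on the wobble uridine, and they moved in opposite directions in PC3 cells. MTO1 had 38.3, 40.7 and 37.5 CPM with vehicle and 51.4, 52.7 and 53.5 CPM with pentamidine in PC3 cells. GTPBP3 had 80.9, 78.0 and 77.7 CPM with vehicle and 68.3, 63.1 and 69.5 CPM with pentamidine. Neither pair of groups overlapped, and MTO1 was the 1 gene of the 10 that was higher after treatment by the test in PC3 cells. The log2 fold changes were 0.44 (SE 0.067, adjusted p = 4.48e-05 by edgeR) for MTO1, a rise of 35.6%, and -0.23 (SE 0.059, adjusted p = 0.00434) for GTPBP3, which fell by 14.8%.

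In DU145 cells neither partner passed the threshold. MTO1 had 35.2, 37.2 and 35.7 CPM with vehicle and 37.3, 37.0 and 39.0 CPM with pentamidine, and GTPBP3 had 78.1, 80.8 and 78.5 CPM with vehicle and 76.3, 82.9 and 73.3 CPM with pentamidine. Both pairs of groups overlapped. On the log2 scale the change was 0.07 (95% interval -0.06 to 0.20, adjusted p = 0.421 by edgeR) for MTO1 and -0.03 (95% interval -0.12 to 0.07, adjusted p = 0.730) for GTPBP3. The direction of GTPBP3 in DU145 cells turned to 0.02 when libraries were scaled by their totals alone.

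Within a sample, the MTO1 count per GTPBP3 count was 0.493 ± 0.0254 (SD, n = 3) with vehicle and 0.786 ± 0.0439 with pentamidine in PC3 cells, 1.60 times the vehicle ratio. In DU145 cells the ratio was 0.455 ± 0.00533 and 0.489 ± 0.0426. The PC3 groups did not overlap (exact two-sided permutation test, p = 0.1, the smallest that 3 against 3 samples allow), and the DU145 groups did (p = 0.4, same exact test). In PC3 cells MTO1 and GTPBP3 had each separated without overlap in opposite directions, so their ratio had to separate as well. Its p there is no further evidence.

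**Figure D3:**
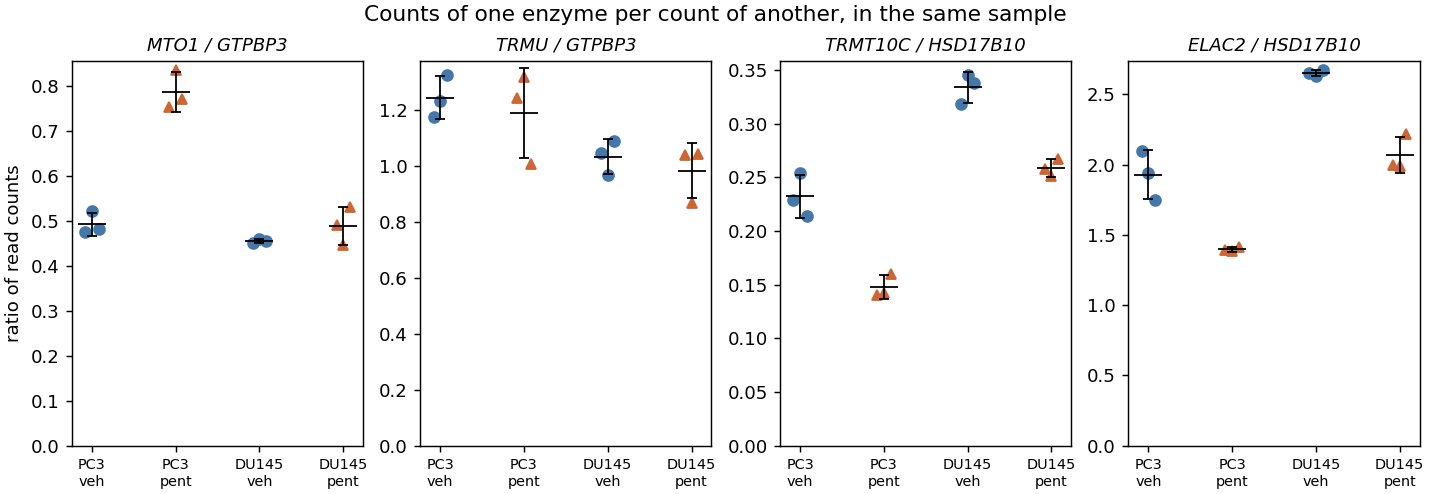
Read counts of 1 enzyme gene per count of another within each sample, with circles for vehicle, triangles for pentamidine, and bars for the mean and SD of 3 samples in each group. The MTO1 to GTPBP3 ratio stands at 0.752 to 0.836 in PC3 pentamidine samples and at 0.531 or lower in all others, whereas the TRMU to GTPBP3 ratios overlap between treatments in both lines.

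TRMU (ENSG00000100416, chr22:46330875-46357340, plus strand), which adds sulphur to the same uridine, fell in PC3 cells. Its level there was 95, 96.3 and 103 CPM with vehicle and 84.9, 83.2 and 70.0 CPM with pentamidine. In DU145 cells it was 81.7, 78.2 and 85.5 CPM with vehicle and 79.3, 72.1 and 76.4 CPM with pentamidine. The PC3 groups did not overlap, with pentamidine sample 3 the lowest, and the DU145 groups did. The log2 fold change was -0.30 (SE 0.071, adjusted p = 0.00239 by edgeR) in PC3 and -0.10 (SE 0.049, adjusted p = 0.0969) in DU145 cells. In DU145 cells the call depended on the samples, since the change was -0.14 without vehicle sample 2 (adjusted p = 0.0451) and -0.14 without pentamidine sample 1 (adjusted p = 0.0415). Per GTPBP3 count, TRMU counts were 1.25 ± 0.0775 with vehicle and 1.19 ± 0.162 with pentamidine in PC3 cells (exact two-sided permutation test, p = 0.7, n = 3), and 1.03 ± 0.062 and 0.984 ± 0.0991 in DU145 cells (p = 0.5, same exact test).

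TRIT1, PUS1 and NSUN3 modify other tRNA positions, and none of these genes passed the threshold in either line. TRIT1 (ENSG00000043514, chr1:39841022-39883511, minus strand), which adds an isopentenyl group beside the anticodon, had 44.5 to 54.3 CPM in PC3 vehicle and 48.2 to 52.9 CPM in PC3 pentamidine samples, and 34.9 to 40.3 and 35.4 to 38.8 CPM in DU145 cells. PUS1 (ENSG00000177192, chr12:131929200-131945896, plus strand), a pseudouridine synthase of mitochondrial and cytosolic tRNAs, had 61.3 to 66.5 and 65.2 to 67.9 CPM in PC3 cells, and 51.3 to 55.6 and 52.2 to 58.0 CPM in DU145 cells. All 4 pairs of groups overlapped, and the 95% intervals of the log2 fold change were -0.12 to 0.21 and -0.16 to 0.10 for TRIT1 and -0.07 to 0.18 and -0.07 to 0.15 for PUS1, in PC3 and DU145 cells.

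NSUN3 (ENSG00000178694, chr3:94062916-94128545, plus strand) methylates a cytosine in the anticodon of the mitochondrial methionine tRNA. It was the least expressed of the 10 genes, with 94 to 165 counts per sample. Its level ran from 7.73 to 10.7 CPM with vehicle and from 6.75 to 8.63 CPM with pentamidine in PC3 cells, and from 7.91 to 10.3 and from 6.71 to 8.0 CPM in DU145 cells. The groups overlapped in both lines. The log2 fold change was -0.27 (95% interval -0.59 to 0.05, adjusted p = 0.159 by edgeR) in PC3 and -0.22 (95% interval -0.49 to 0.06, adjusted p = 0.226) in DU145 cells, and at this depth a fall of the size seen for TRMT10C lies within the first interval. NSUN3 shares 223 exon bases with DHFR2 on the opposite strand, and reads of the pair cannot be told apart where the library does not keep the strand. DHFR2 had 113 to 212 counts per sample.

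MTPAP (ENSG00000107951, chr10:30309801-30374448, minus strand), the mitochondrial poly(A) polymerase, fell in both lines. PC3 cells had 23.7, 24.6 and 24.0 CPM with vehicle and 19.6, 19.7 and 18 CPM with pentamidine. DU145 cells had 35.6, 36.7 and 35.6 CPM with vehicle and 27.8, 29 and 33.2 CPM with pentamidine. The groups did not overlap, although DU145 pentamidine sample 3 lay closer to the vehicle samples than the other two did. The log2 fold change was -0.33 (SE 0.085, adjusted p = 0.00462 by edgeR) in PC3 and -0.26 (SE 0.071, adjusted p = 0.00331) in DU145 cells. MTPAP shares 1626 exon bases, 19.4% of its exon length, with the pseudogene GOLGA2P6 on the same strand, and its counts could hold reads of that gene. It also shares 1120 exon bases, 13.4%, with the antisense gene AL353796.2. Neither gene is listed among the genes kept, so their levels are not known here.

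**Figure D4:**
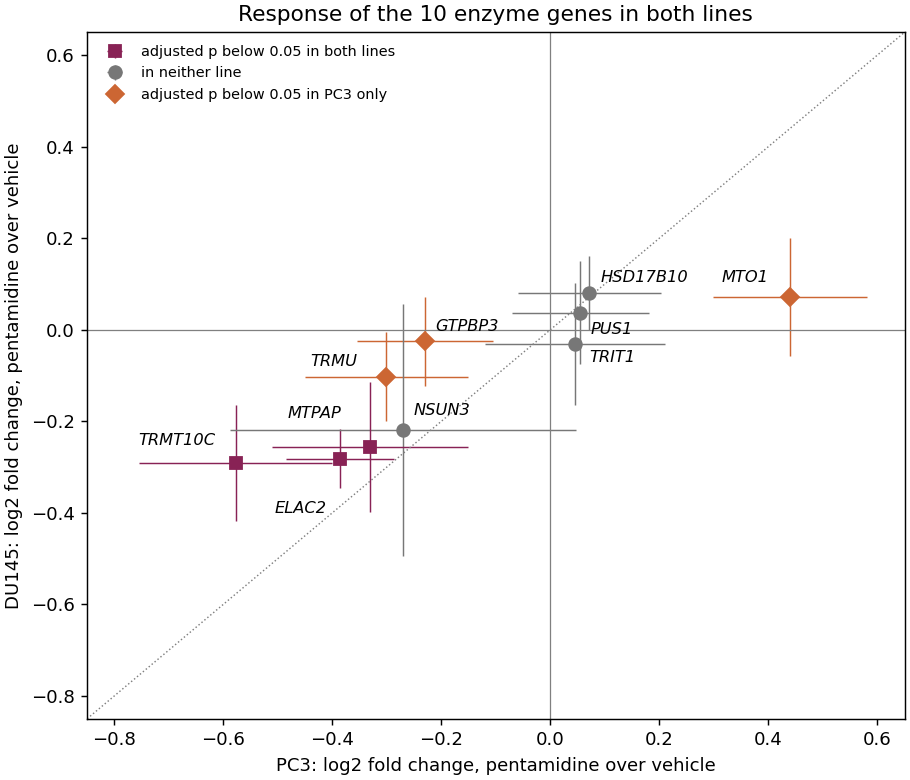
Log2 fold change with pentamidine in PC3 (horizontal) and DU145 cells (vertical) for the 10 genes, with 95% intervals, the dotted line marking equal change and the symbols marking the lines in which the adjusted p was below 0.05. TRMT10C, ELAC2 and MTPAP lie in the lower left, and MTO1 lies apart at 0.44 in PC3 and 0.07 in DU145 cells.

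The response was then compared between the lines by the interaction of treatment and line over all 12 samples, in which 20.4% of 15226 genes passed the threshold, 10.2% with a higher and 10.3% with a lower value in PC3 cells, and 2.62% also with an absolute log2 difference above 1. Of the 10 genes 2 did, MTO1 and TRMT10C, a share near that among all genes. For MTO1 the effect in PC3 minus that in DU145 cells was 0.37 on the log2 scale (SE 0.087, adjusted p = 0.0028 by edgeR), and it passed under all 19 other settings tried, with an adjusted p of 0.00185 to 0.0147. For TRMT10C it was -0.29 (SE 0.10, adjusted p = 0.0477), and it passed in 5 of those 19 settings, with an adjusted p of 0.0132 to 0.141. Leaving out any sample of DU145 cells, PC3 vehicle sample 2 or 3, or PC3 pentamidine sample 1 or 2 ended the TRMT10C call, with differences of -0.31 to -0.24. GTPBP3 (-0.21, adjusted p = 0.0619) and TRMU (-0.20, adjusted p = 0.121) did not pass, so their fall in PC3 cells was not shown to differ from DU145 cells, and GTPBP3 passed without DU145 pentamidine sample 3 (-0.24, adjusted p = 0.0410). For ELAC2 the difference was -0.10 (95% interval -0.21 to 0.0057) and for MTPAP -0.07 (95% interval -0.30 to 0.15). With libraries scaled by their totals alone, ELAC2 (-0.17, adjusted p = 0.0183), GTPBP3 (-0.27, adjusted p = 0.0116) and TRMU (-0.27, adjusted p = 0.0302) also passed, the median difference of all genes moved by -0.0677 and the share of higher calls among all genes from 49.7% to 33.3%, and in the DU145 comparison that share moved from 50.6% to 66.6%.

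Before treatment the lines already differed in 6 of the 10 genes, 3 lower and 3 higher in PC3 cells, beside 65.3% of 14394 genes tested, of which 33.8% were lower and 31.5% higher. None of the 10 reached an absolute log2 difference of 1, which 19.2% of all genes did together with the adjusted p. In vehicle-treated PC3 cells MTPAP was lower than in DU145 cells by -0.60 on the log2 scale (SE 0.072, adjusted p = 1.57e-06 by edgeR), TRMT10C by -0.44 (SE 0.074, adjusted p = 6.49e-05) and ELAC2 by -0.38 (SE 0.043, adjusted p = 9.56e-07). TRIT1, TRMU and PUS1 were higher in PC3 cells, by 0.33, 0.24 and 0.22 with adjusted p of 0.00248, 0.0017 and 0.00377. For these 6 genes, and for HSD17B10 and MTO1, the vehicle groups did not overlap, which made 8 of 10 beside 69.1% of all genes. HSD17B10 (0.09, adjusted p = 0.229), MTO1 (0.08, adjusted p = 0.298), GTPBP3 (-0.03) and NSUN3 (0.03) did not pass, and HSD17B10 passed without PC3 vehicle sample 1 (0.14, adjusted p = 0.0211).

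TRMT10C, ELAC2 and MTPAP thus shared an order of levels over the 4 groups. TRMT10C rose from 22.4 ± 1.46 CPM in PC3 pentamidine through 33.5 ± 2.17 in PC3 vehicle and 36.5 ± 0.924 in DU145 pentamidine to 44.8 ± 2.43 in DU145 vehicle samples (mean ± SD, n = 3). ELAC2 followed with 212 ± 1.46, 278 ± 7.71, 292 ± 2.98 and 355 ± 4.13 CPM, and MTPAP with 19.1 ± 0.949, 24.1 ± 0.450, 30 ± 2.81 and 36.0 ± 0.653 CPM. Neighbouring groups did not overlap for any of these genes. The group means of 11.5% of all genes tested fell in this order, a count that does not ask for groups without overlap. The share of all genes whose neighbouring groups also did not overlap was not taken. The falls within each line are part of this order and were already given above for these genes. MTO1 ran from 36.0 ± 1.08 in DU145 vehicle through 37.8 ± 1.05 and 38.8 ± 1.67 to 52.5 ± 1.06 CPM in PC3 pentamidine samples, and its lower 3 groups overlapped with their neighbours. Over the 12 samples, which share lines and treatments, Pearson's r of log2 CPM with TRMT10C was 0.973 for ELAC2, 0.927 for MTPAP, -0.927 for MTO1 and 0.828 for GTPBP3. For the remaining members r was -0.821 for PUS1, -0.685 for TRIT1, -0.644 for HSD17B10, 0.296 for NSUN3 and 0.030 for TRMU. The spread of r over all genes was not taken. Among 10626 genes with a mean of at least 5 CPM, FASTKD5, a mitochondrial RNA-binding protein, was most like TRMT10C (r = 0.991), followed by HACD3, an enzyme of long-chain fatty acid synthesis, and TCOF1, a nucleolar protein, both at r = 0.983. FASTKD5 had mean levels of 38.6 and 26.0 CPM in PC3 vehicle and pentamidine and of 53.1 and 41.9 CPM in DU145 vehicle and pentamidine samples.

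The other genes of mitochondrial tRNA maturation moved in both directions. Of 22 further enzymes, 3 were higher and 4 lower in PC3 cells and 2 higher and 3 lower in DU145 cells, with median log2 fold changes of -0.08 and -0.04. The 7 and 5 genes called were 31.8% and 22.7% of the list, below the 43.4% and 34.0% among all genes tested. Only TRMT1 and QTRT2 passed in both lines in the same direction: TRMT1, a guanosine methyltransferase, rose by 0.30 in PC3 and 0.19 in DU145 cells, and QTRT2, a subunit of the queuosine-inserting enzyme, fell by 0.27 and 0.18. Of 11 genes of mitochondrial rRNA modification and assembly, 3 were higher and 4 lower in PC3 cells and 1 was higher in DU145 cells, and MTERF4 passed in both (0.21 and 0.24). The genes called were 63.6% of that list in PC3 and 9.09% in DU145 cells, beside the same 43.4% and 34.0%. Of 10 genes of mitochondrial RNA decay and stability, 1 was higher and 2 lower in PC3 cells and 1 higher and 4 lower in DU145 cells. These were 30% and 50% of the list, below the share among all genes in PC3 and above it in DU145 cells. In that list PNPT1, the mitochondrial polynucleotide phosphorylase, fell by 0.34 and 0.30, and PDE12, which removes poly(A) tails, the opposite reaction to that of MTPAP, fell by 0.31 and 0.21.

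**Figure D5:**
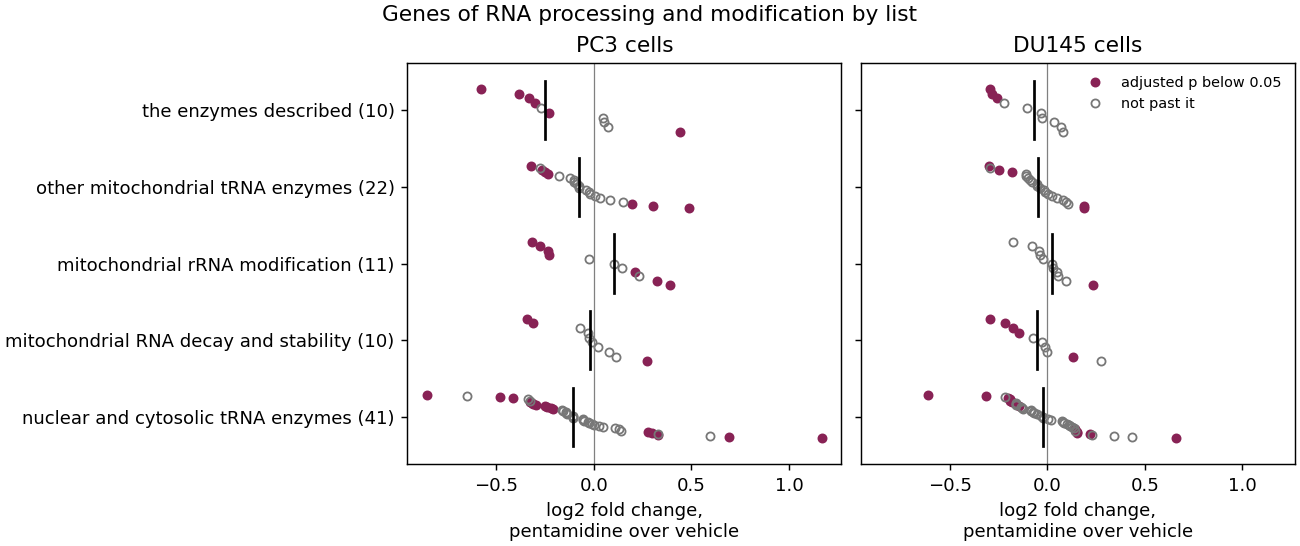
Log2 fold change with pentamidine of each gene of the 5 lists in PC3 and DU145 cells, with filled points for an adjusted p below 0.05, open points for the others and black bars for the median. The list of the 10 genes has medians of -0.25 and -0.07, and each list holds genes on both sides of 0.

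Paralogs of the 10 genes were read beside them. TRMT10B, a relative of TRMT10C, was higher in PC3 cells (0.28, adjusted p = 0.0248 by edgeR) and did not pass in DU145 cells (0.15, adjusted p = 0.255), and TRMT10A did not pass in either line. ELAC1, the short relative of ELAC2, was higher in PC3 cells (0.69, SE 0.23, adjusted p = 0.0206), where ELAC2 fell, and its change in DU145 cells was 0.44 (SE 0.18, adjusted p = 0.0574). PUSL1, a relative of PUS1, was lower in PC3 cells (-0.32, adjusted p = 0.0202) and stood at 0.0039 in DU145 cells (adjusted p = 0.978). Of the relatives of NSUN3, NSUN2 fell by 0.30 in DU145 cells (adjusted p = 2.14e-11) and had -0.10 in PC3 cells (adjusted p = 0.101), whereas NSUN4, which methylates mitochondrial rRNA, rose by 0.32 in PC3 cells (adjusted p = 3.70e-04) and had -0.04 in DU145 cells (adjusted p = 0.635). The difference between the lines passed for NSUN2 (0.20, adjusted p = 0.0072) and NSUN4 (0.36, adjusted p = 0.00166). It did not pass for PUSL1 (-0.33, adjusted p = 0.0974 by edgeR) or ELAC1 (0.26, adjusted p = 0.599). Nor did it pass for TRMT10B (0.13, adjusted p = 0.522) or TRMT10A (0.13, adjusted p = 0.723).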

How the data were processed

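Polyadenylated RNA of 12 samples in 4 groups was sequenced, and samples were grouped by their labels. Whole-number counts per gene were deposited by the authors without normalization. The submitters' processing notes name HISAT2 2.1.0, DESeq 1.18.1 and GRCh38, and the counting program and strand setting are not given in the sources used here. Columns of the authors' own comparisons and their scaled values were not used. Of 33595 entries, 32077 genes were kept after repeated names were merged, and 24 names had become dates. Reads carry no molecular identifiers, and 1 count was worth 0.0661 to 0.0740 CPM.

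The counts were tested with edgeR 4.0.16 in R 4.3.3 (quasi-likelihood, TMM scaling, minimum count 10, Benjamini-Hochberg adjustment over all genes tested, threshold 0.05), with 6 samples per comparison of 2 groups and 12 for the interaction. CPM are TMM-scaled over all samples, and fold changes are from the fit. Per-kilobase levels used principal transcript lengths of GENCODE release 29, which also gave exon overlaps, and promoters came from RefSeq. Count ratios were compared with scipy 1.17.1. Pairs of replicates differed by more than counting error (chi-square per gene, averaged over genes, 1.72 to 7.30). The highest values, 5.98 and 7.30, were those of the pairs with PC3 vehicle sample 1. Alternatives were DESeq2 1.42.0, other scalings and filters, a replicate block, 1 fit of all samples, stricter thresholds and leaving out each sample. The genes named were the 10 members, PRORP, the paralogs, the 3 genes most like TRMT10C, and up to 3 genes per list that passed in both lines with the largest mean change. The members and lists were chosen with earlier results of these data known. No protein sequences were compared.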

Additional observations from a re-analysis of the deposited data

Results flagged for a closer look

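The response to pentamidine differed between the lines for 2 of the 10 genes by the interaction of treatment and line (edgeR's quasi-likelihood test over 12 samples), beside 20.4% of all genes tested. For MTO1 the effect in PC3 minus that in DU145 cells was 0.37 on the log2 scale (adjusted p = 0.0028), with all 3 PC3 pentamidine samples above all PC3 vehicle samples and overlapping groups in DU145 cells. For TRMT10C the difference was -0.29 (adjusted p = 0.0477), with lower levels in all pentamidine samples of both lines and the larger fall in PC3 cells, and it passed in 5 of 19 other settings.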

How the results depend on the processing

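The 6 calls among the 10 genes in PC3 cells, the 3 in DU145 cells and the 6 between vehicle-treated lines each held under all 14 settings that refit their comparison. Requiring an absolute log2 fold change above 1 left 0 of the 10 genes in all 4 comparisons, and 658, 290, 399 and 2768 of all genes in PC3, DU145, the interaction and the vehicle comparison. In the interaction the count of 2 genes became 1 under DESeq2, RLE scaling, TMM without mitochondria-encoded genes, no filter and an adjusted p below 0.01 (1996 of all genes), became 5 with library totals alone (ELAC2, GTPBP3 and TRMU added), and ran from 1 to 2 when 1 sample was left out. With library totals alone, signs turned for changes that had not passed: GTPBP3 (0.0241) and TRIT1 (0.0189) in DU145 cells, PUS1 in the interaction (-0.0511) and GTPBP3 between vehicles (0.0503). Calls were gained there for HSD17B10 in DU145 cells (0.13, adjusted p = 0.00965) and for HSD17B10 (0.17, adjusted p = 0.0205) and MTO1 (0.16, adjusted p = 0.0481) between vehicles. The interaction of HSD17B10, which had not passed, was 0.0079 under DESeq2, 0.0081 under RLE, 0.00057 without mitochondria-encoded genes and 0.0046 without a filter. The cause was not tested.

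Leaving out 1 sample also turned signs only among changes that had not passed, 19 times over all genes and samples. The values then ranged from -0.0246 to 0.128 for TRIT1 in PC3 cells, -0.098 to 0.00814 for TRIT1 in DU145 cells, -0.00219 to 0.0700 for PUS1 in DU145 cells, -0.0835 to 0.00873 for GTPBP3 in DU145 cells, -0.0221 to 0.0602 for PUS1 in the interaction, -0.173 to 0.0793 for NSUN3 in the interaction, -0.0493 to 0.0762 for HSD17B10 in the interaction, -0.125 to 0.00501 for MTPAP in the interaction and -0.0869 to 0.159 for NSUN3 between vehicles.

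The replicate numbers gave no sign of pairing the samples. Deviations of same-numbered samples correlated at -0.249 to 0.0374 in PC3 and at -0.00059 to 0.0541 in DU145 cells, and not every sample correlated best with its own number. The deviations were taken from the mean of each group, which ties the correlations within a line to each other. This check therefore cannot settle whether samples were prepared in pairs. In PC3 cells r was 0.227 for vehicle sample 3 with pentamidine sample 2. Vehicle sample 1 had 0.212 with pentamidine sample 3 and -0.223 with pentamidine sample 2. The cause of this structure was not tested. With the replicate block the calls were 6, 3, 2 and 6 of the 10 genes and 5599, 4794, 3021 and 9430 of all genes in PC3, DU145, the interaction and the vehicle comparison. Among the 10 genes depth limits NSUN3 most, at 94 to 165 counts per sample.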

Other observations

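Among genes of tRNA processing outside the mitochondrion, TSEN15 and POP1 changed by more than any of the 10 enzyme genes did in the same line. Of 41 genes of nuclear and cytosolic tRNA processing and modification, 5 were higher and 11 lower in PC3 cells (edgeR, adjusted p below 0.05). In DU145 cells 5 were higher and 7 lower. The genes called were 39.0% and 29.3% of the list, below the 43.4% and 34.0% among all genes tested. Median log2 fold changes were -0.11 in PC3 and -0.02 in DU145 cells. TSEN15 and POP1 were named for the largest mean changes among genes of this list that passed in both lines. TSEN15, a subunit of the tRNA splicing endonuclease, rose by 1.17 (SE 0.072) in PC3 and by 0.66 (SE 0.058) in DU145 cells, and the difference of 0.50 passed the threshold (adjusted p = 5.31e-04). POP1, the large protein subunit of nuclear RNase P, fell by 0.86 (SE 0.075) in PC3 and by 0.61 (SE 0.065) in DU145 cells. POP7, another protein subunit of nuclear RNase P, fell by 0.42 (SE 0.083) and 0.19 (SE 0.071). The other subunits in the list did not all follow. POP4, POP5 and RPP30 were lower by the test in PC3 cells only. RPP14, RPP21, RPP25, RPP38 and RPP40 passed in neither line, and the changes of RPP21 and RPP38 were positive in both.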
